A study of Mus musculus with 10 samples.

Results

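Lone H3K4me3 peaks are places where untreated mouse embryonic stem cells carried trimethylated lysine 4 of histone H3 without a called peak of RNA polymerase II (Pol II), H3K79me2 or H3K27me3. They were chosen from the deposited peak lists as untreated H3K4me3 peaks under 4000 bp wide that overlapped, by at least 1 bp, no untreated peak of those 3 targets. The rule gave 6343 of 38421 untreated H3K4me3 peaks. Their lack of Pol II, H3K79me2 and H3K27me3 in untreated cells is therefore the choice itself and not a result.

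The study used ChIP-seq, in which DNA bound by a protein or a histone mark is precipitated and sequenced, in the R1E line of embryonic stem cells. This line has a mixed C57BL/6X129Sv background and was kept below passage 20 in medium with serum and leukemia inhibitory factor. Cells were untreated or given 0.5 uM Adriamycin for 8 h, and each of the 5 targets (H3K4me3, H3K27me3, H3K79me2, Pol II and the RNA-binding protein hnRNP L) has 1 list of peaks per condition. Both conditions come from 1 line, and there are no replicates, so no difference between conditions could be tested. The lists held 1022 to 97639 peaks, and their read depth is unknown. Each peak has a score from the authors' peak caller, which is 10 times the negative log10 of its p-value in this generation of the program, starts at 50 and is capped near 3100. It ranks peaks within a list. The values of different lists are given side by side and not compared in size.

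H3K4me3 is laid down around the starts of genes, mostly at promoters rich in CpG, by methyltransferase complexes of the SET1 and MLL families. At most active promoters it lies together with Pol II, and H3K79me2, made by DOT1L, follows along the transcribed gene body. In embryonic stem cells many silent developmental promoters carry H3K4me3 together with H3K27me3 of the Polycomb system. Weaker H3K4me3 is also known at some enhancers, and H3K4me3 is known at transfer RNA genes, which RNA polymerase III transcribes. Adriamycin (doxorubicin) traps topoisomerase II on DNA and breaks it. Which genes lie at the lone peaks was not analysed here.

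Lone peaks were mostly narrow and weak. Their median width was 710 bp (quartiles 539 and 930 bp), and that of the other 30376 untreated H3K4me3 peaks under 4000 bp was 1400 bp. The median score was 101.84 (quartiles 68.8 and 184), against 543 in the others. Scores of at least 500 were held by 447 lone peaks (7.05%) and by 51.3% of the others. A small set was at the top of the scale, with 30 lone peaks at 3000 or more. These values are a description, since peak strength and the chance of overlapping another peak go together. The share of lone peaks fell from 39.0% of the peaks with scores of 50 to 60 to 3.12% of those between 1000 and 3000 and 0.379% of those at 3000 or more. Together the lone peaks covered 5.03 Mb of the 62.9 Mb under untreated H3K4me3 peaks.

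**Figure D1:**
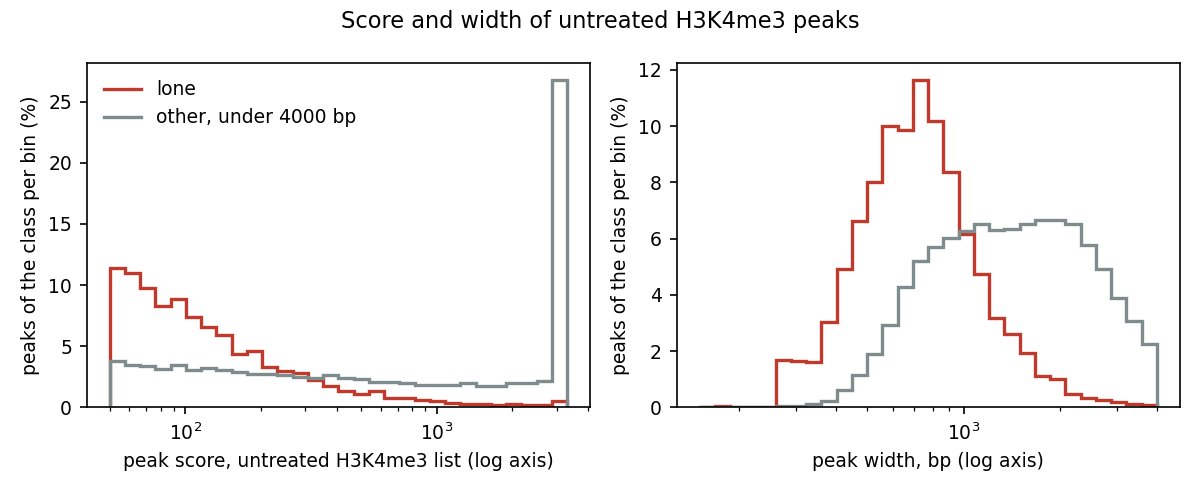
Distribution of the peak score (left, log axis) and the peak width in bp (right, log axis) of untreated H3K4me3 peaks under 4000 bp, as the percent of each class per bin, for 6343 lone peaks and 30376 others. Lone peaks pile up at low scores and at widths around their median of 710 bp, and the others have a spike at the ceiling of the score.

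At the width limit little depended on the cut. The widest lone peaks measured 3870, 3755 and 3738 bp, and only 5 peaks of 4000 bp or more met the rest of the rule, the narrowest of them 4185, 4398 and 4508 bp. At the overlap limit, 291 lone peaks had a Pol II, H3K79me2 or H3K27me3 peak within 100 bp, of which 4 touched one. Just outside, 236 other peaks had a longest overlap of at most 100 bp, and 2 had a longest overlap of 1 bp. The peaks on both sides of this limit had similar values, with median scores of 108 inside and 111 outside and median widths of 771 and 794 bp.

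Most lone peaks had other peaks in reach. Of the 6343, 1760 (27.7%) had an untreated peak of Pol II, H3K79me2 or H3K27me3 within 1 kb, 1774 (28.0%) had the nearest between 1 and 5 kb away, and 528 (8.32%) had none within 100 kb. Where 1 of them was within 5 kb, H3K27me3 was the closest at 1791 lone peaks, Pol II at 1148 and H3K79me2 at 595. This is also the order of the lengths of the untreated lists (97639, 81069 and 63053 peaks). H3K27me3 lay within 1 kb of 1028 lone peaks (16.2%), Pol II within 1 kb of 560 (8.83%) and H3K79me2 within 1 kb of 399 (6.29%). Among other peaks under 4000 bp that lacked the target, these were 1357 of 19764, 965 of 8487 and 1670 of 17231. Lone peaks thus had H3K27me3 nearby more often than those, and Pol II and H3K79me2 less often. The median gaps of lone peaks were 13.8 kb to H3K27me3, 15.8 kb to Pol II, 48.3 kb to H3K79me2 and 1784 kb to hnRNP L, whose list is far shorter. Some lone peaks lay between peaks of the same target. With a peak of the same target within 5 kb on both sides, 631 lay between H3K27me3 peaks (9.95%, exact 95% interval 9.22 to 10.7%), 405 between Pol II peaks (6.38%) and 268 between H3K79me2 peaks (4.23%). Within 1 kb on both sides these were 191 (3.01%), 50 (0.788%) and 85 (1.34%). The shares of other H3K4me3 peaks were not worked out. Intervals here and below cover counting error within the lists only.

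Strong and weak lone peaks differed in what lay beside them. Among the 447 with a score of at least 500, 29.1% had H3K27me3 within 1 kb, against 13.9% of the 3098 with scores of 50 to 100. For Pol II the order was the other way, with 6.04% and 9.20%, and for H3K79me2 the shares were 8.50% and 6.17%. These shares by score were not worked out for other H3K4me3 peaks, so they are not shown to be particular to lone peaks. The distance to H3K27me3 also set the strong peaks apart by its median, 7.97 kb against 15.1 kb. Lone peaks within 1 kb of any of the 3 targets had a score of at least 500 in 9.94%, and those over 100 kb away in 3.41%, with median widths of 778 and 547 bp.

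**Figure D2:**
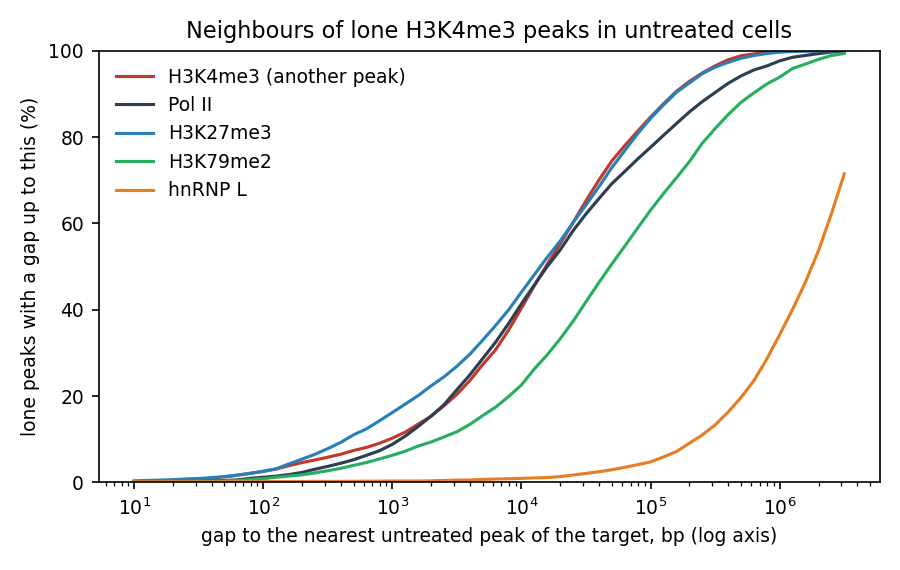
Share of the 6343 lone H3K4me3 peaks (vertical axis, percent) whose gap to the nearest untreated peak of each target is at most the distance on the horizontal axis (bp, log axis). The H3K27me3 line runs highest at short range (16.2% at 1 kb), H3K79me2 runs lower (6.29%) and hnRNP L lowest.

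Lone peaks were also spaced apart from other H3K4me3. Another untreated H3K4me3 peak lay within 5 kb of 1730 lone peaks (27.3%), against 47.0% of the other peaks under 4000 bp, and the median gaps were 15.4 and 5.75 kb. Of these 1730, 1254 had a peak that was not lone within 5 kb and 641 had another lone peak there. Some had both, so these counts cannot be set against the 16.5% of the list that is lone. Chained over gaps of up to 5 kb, 5702 lone peaks stood by themselves, 273 runs held 2, 24 runs held 3, and 4 runs held more. The 3 most isolated were on chromosome X at 128512352-128512735, 89103940-89104370 and 15373179-15373660. They lay 1474, 1227 and 821 kb from any other untreated peak, were 384, 431 and 482 bp wide, and had scores of 85.07, 74.26 and 107.96. Each overlapped an Adriamycin H3K4me3 peak, with scores of 91.51, 71.25 and 52.7 in that list.

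By chromosome, lone peaks made up between 11.2% (chromosome 7, interval 10.04 to 12.5%) and 21.7% (chromosome 3, 19.8 to 23.7%) of the untreated H3K4me3 peaks of the numbered chromosomes and X. Chromosome 11 was low as well (11.7%), and chromosomes 13 (21.5%) and X (21.2%) were high. Of the 2390 windows of 1 Mb that held any untreated H3K4me3 peak, 2042 held a lone one, with a median of 2.

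Of the 447 lone peaks that scored 500 or more, chromosome 13 held 51, the most of any chromosome, and most of these lay in 1 stretch. Between 21 and 24 Mb it held 57 lone peaks, 0.899% of all, but 39 of the 447 strong ones (8.72%) and 11 of the 30 at 3000 or more (36.7%). The windows of 1 Mb in this stretch held 13, 14 and 12 lone peaks of at least 500, and no other window held more than 4. From general knowledge the largest mouse histone gene cluster and many transfer RNA genes lie in that stretch, and the peaks were not assigned to genes here. The stretch was chosen after the values were seen. High scores there were not particular to lone peaks, since 65 of the 78 other H3K4me3 peaks in the stretch had a score of at least 500, against 46.1% of all untreated H3K4me3 peaks, and 33 had 3000 or more. Of the 78, 63 overlapped Pol II in untreated cells, so Pol II peaks were called there, and the median gap from a lone peak to Pol II was 12.8 kb.

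The densest run of lone peaks was in the same stretch, at 21998070-22033630, where 10 followed each other within 35.6 kb with no other H3K4me3 peak between them. In order along the chromosome their untreated scores were 972.59, 752.52, 1441.81, 3100, 1871.9, 864.61, 58.13, 907.14, 1058.88 and 3100. The Adriamycin list had a peak at 10 of 10, with scores of 1312.62, 659.28, 1799.18, 2450.17, 1493.08, 310.12, 97.72, 886.03, 1186.59 and 2931.44. The seventh was low in both lists, and the fourth and the tenth were the highest in both. None of the 10 overlapped a Pol II peak in either list. The next run, at 22107045-22125443, held 5 lone peaks, and a run of 4 lay on chromosome 3 at 96202397-96210488.

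**Figure D3:**
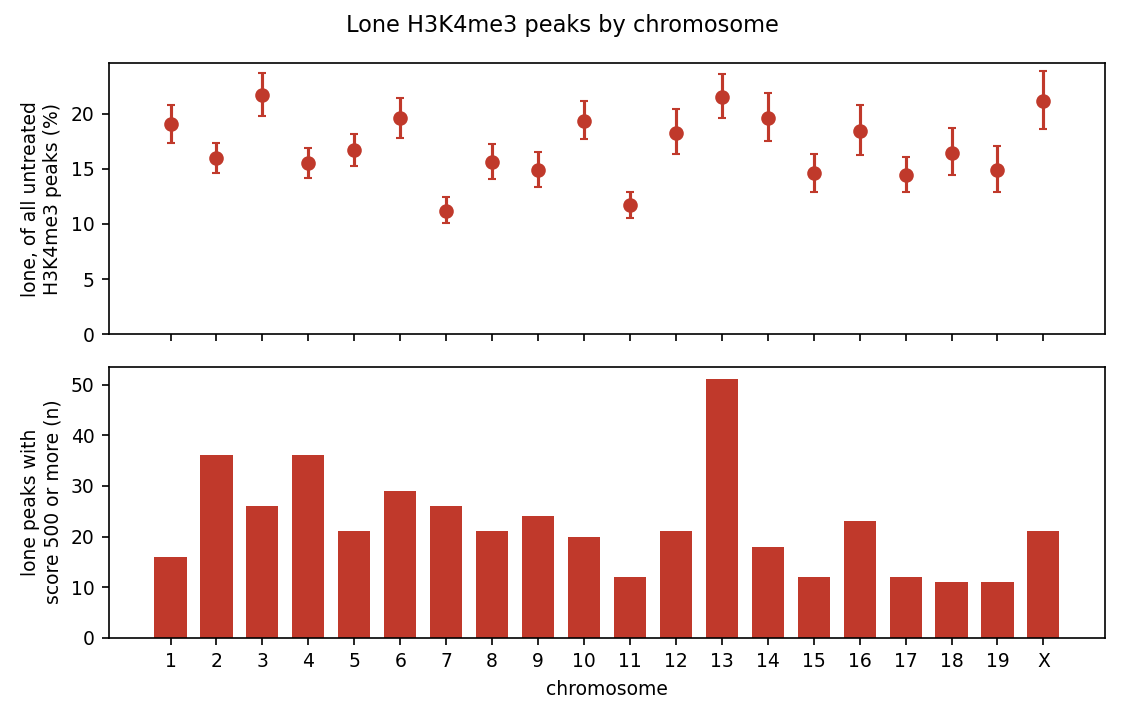
Top, lone peaks as a percent of all untreated H3K4me3 peaks on each chromosome, with exact 95% binomial intervals; bottom, number of lone peaks with a score of at least 500. Chromosomes 7 and 11 are lowest in the top panel, and chromosome 13 has the most strong lone peaks, 51, of which 39 lie in 1 stretch of it.

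The first comparison with Adriamycin asked whether H3K4me3 was found again at these places. An Adriamycin H3K4me3 peak overlapped 4723 of 6343 lone peaks (74.5%, interval 73.4 to 75.5%), against a background of 85.5% of all untreated H3K4me3 peaks. The 1620 without one are 25.5%, against a background of 14.5%. Weak lone peaks more often lacked a partner. Of the 1620 without one, 1250 had scores of 50 to 100, 365 of 100 to 500, and 5 of 500 or more. A partner was found for 464 of 928 at scores of 50 to 60 (50%), 79.9% at 100 to 150, 94.4% at 200 to 500, and 179 of 179 at 1000 and above. On the numbered chromosomes and X the share ran from 67.3% (chromosome 11, 62.2 to 72.2%) to 80.8% (X, 74.7 to 86.0%), and the 1 lone peak on Y had no partner. Among 4574 lone peaks with a 1 to 1 partner, the median width was 728 bp in untreated cells and 644 bp after Adriamycin. The median change was -69 bp (quartiles -167 and 28 bp), and 69.3% were narrower, against 67.8% of the other peaks under 4000 bp.

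At like score, a partner was found for lone peaks as often as for other peaks or more often. The shares were 50% and 39.3% at 50 to 60, 60.2% and 53.3% at 60 to 80, 79.9% and 72.8% at 100 to 150, and 89.9% and 82.3% at 150 to 200. With the other peaks weighted to the scores of the lone ones, 74.5% of lone and 68.6% of other peaks had a partner, a difference of 5.88 percentage points (interval 4.63 to 7.13, counting error only). The difference was smaller among isolated peaks, and the part of crowding in it was not tested. Among peaks with no other untreated H3K4me3 peak within 5 kb, a setting chosen after the values were seen, it was 1.31 points (-0.29 to 2.91). A difference between lone and other isolated peaks was thus not shown, and with 1 library per condition neither value has a replicate check.

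**Figure D4:**
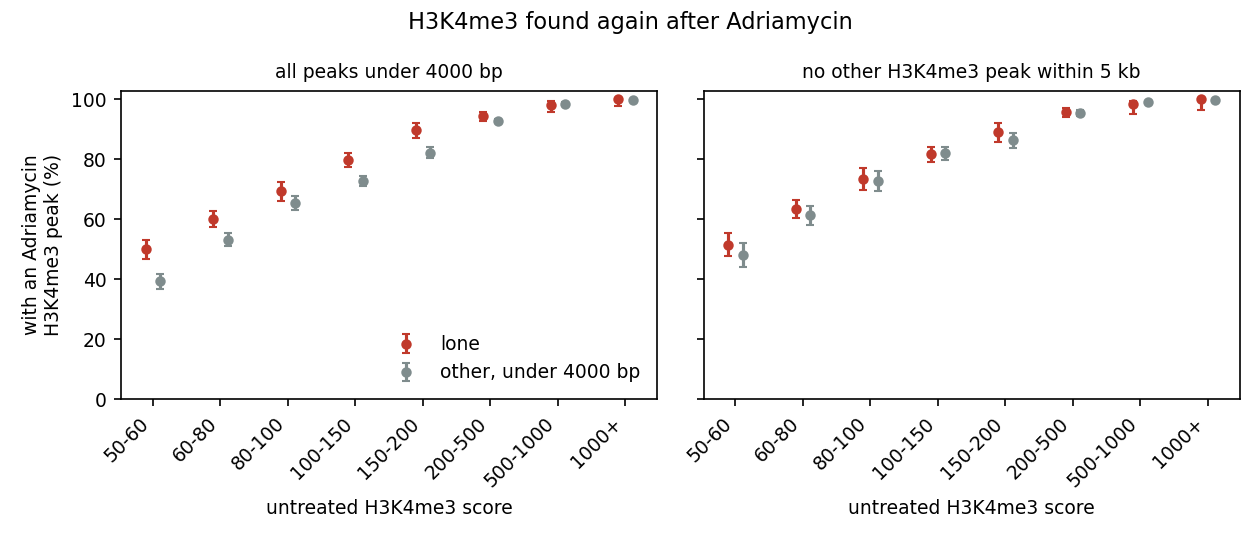
Percent of untreated H3K4me3 peaks with an overlapping Adriamycin H3K4me3 peak, by untreated score, for lone and other peaks under 4000 bp, with exact 95% binomial intervals. Left, all such peaks, where lone peaks lie higher at low scores (50% and 39.3% at 50 to 60); right, peaks with no other H3K4me3 peak within 5 kb, where the intervals of the 2 classes overlap in every score class.

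The strongest lone peaks were found again in the Adriamycin list. The highest score was on chromosome 9 at 35006536-35008397 (1862 bp), with 3166.25 in untreated cells and 3117.15 after Adriamycin. Next was chromosome 11 at 65981176-65982406 (1231 bp), with 3134.76 and 3100. Both overlapped a Pol II peak after Adriamycin, with scores of 181.33 and 144.08, and neither held H3K79me2 or H3K27me3 in any list. Their surroundings differed. On chromosome 9 untreated Pol II lay 2.08 kb away, and on chromosome 11 it lay 163 kb away, with H3K27me3 at 329 bp. A peak on chromosome 1 at 52556182-52558128 (3100 in both H3K4me3 lists) had untreated H3K27me3 at 343 bp and untreated Pol II at 66.9 kb, and a weak Pol II peak after Adriamycin (73.33). On chromosome 12 at 56085118-56087877 (3100 in both) a weak H3K27me3 peak was found after Adriamycin (50.95), where untreated H3K27me3 had ended 523 bp away. Chromosome 1 at 172966477-172969601 and 173031473-173034065 had 3100 in both H3K4me3 lists and no peak of the other targets in any list. The same held on chromosome 13 at 21250851-21253896, 21324901-21326892, 21366541-21369075 and 21973255-21975925. These were not all free of neighbours. The peak at 21250851-21253896 lay 2 bp from another untreated H3K4me3 peak, and the peak at 21366541-21369075 had untreated H3K27me3 at 343 bp.

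Only 5 lone peaks with a score of at least 500 had no H3K4me3 partner. The strongest was on chromosome 13 at 23607979-23611716 (3738 bp, score 907.85), inside the stretch described above, where the nearest Adriamycin H3K4me3 peak was 5.80 kb away. No peak of any other target lay on it in either condition. Next came chromosome 9 at 37191524-37193159 (764.13), where a Pol II peak of 72.65 was found after Adriamycin, and chromosome 9 at 45237935-45241358 (663.39) and chromosome 8 at 54596817-54598007 (586.61), which held none of the targets after treatment. On chromosome 4 at 153202799-153205285 (582.07) an Adriamycin H3K4me3 peak ended 80 bp away and an H3K79me2 peak of 85.26 overlapped. At the other 4 the nearest Adriamycin H3K4me3 peak lay 5.80 to 125 kb away.

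The next comparison asked which other targets were found at lone peaks after Adriamycin. Since untreated cells had none by the choice, these counts can only go 1 way and show no gain by themselves. None of the 3 targets was found at 5634 lone peaks (88.8%, 88.0 to 89.6%), against a background of 25.6% of all untreated H3K4me3 peaks. Pol II was found at 382 (6.02%, 5.45 to 6.64%), against 49.5% of all untreated H3K4me3 peaks and 8.12% of those without untreated Pol II. H3K27me3 was found at 244 (3.85%, 3.39 to 4.35%), against 24% of all and 2.05% of those without it before. H3K79me2 was found at 118 (1.86%, 1.54 to 2.22%), against 36.4% and 2.76%. Taking H3K4me3 and the 3 targets together, 4127 lone peaks (65.1%) were H3K4me3 alone again, and 1507 (23.8%) held none of the 4. H3K4me3 lay with Pol II only at 307, with H3K27me3 only at 187 and with H3K79me2 only at 68. Pol II and H3K27me3 were found together with H3K4me3 at 19, and Pol II and H3K79me2 at 15.

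The peaks found there were weak as a rule. Median scores in the Adriamycin lists were 73.9 for Pol II, 71.5 for H3K27me3 and 84.7 for H3K79me2. Scores of at least 100 were held by 105 of 382, 52 of 244 and 49 of 118. Over all untreated H3K4me3 peaks without the target before, the medians were 76.1, 73.8 and 85.2. There 376 of 1207, 137 of 567 and 269 of 652 had at least 100, so weak scores were not particular to lone peaks. The peaks found after Adriamycin were more frequent at strong lone peaks. Pol II was found at 13.6% of lone peaks with a score of at least 500 (61 of 447, 10.6 to 17.2%) and at 4.42% of those of 50 to 100 (3.73 to 5.21%). H3K27me3 was found at 9.84% (7.24 to 12.99%) and 2.94% (2.37 to 3.59%), and H3K79me2 at 2.91% and 1.71%, whose intervals overlap. In the chromosome 13 stretch, none of 57 lone peaks overlapped Pol II or H3K27me3 after Adriamycin, and 1 overlapped H3K79me2. Over all lone peaks the shares were 6.02% for Pol II, 3.85% for H3K27me3 and 1.86% for H3K79me2, so few would be found among 57. The stretch was picked after the values were seen, and a difference from the other lone peaks was not shown.

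They were also more frequent where the target had been near. Any of the 3 was found at 18.6% of lone peaks that had one within 1 kb in untreated cells (16.8 to 20.5%), at 7.75% of those at 5 to 20 kb, and at 1.70% of those over 100 kb away (0.782 to 3.21%). For H3K27me3 the shares were 12.3% with untreated H3K27me3 within 1 kb and 1.505% with none within 5 kb, and for H3K79me2 17.0% and 0.485%. For Pol II they were 11.3% and 4.60%. Over all untreated H3K4me3 peaks without the target, the shares within 1 kb and over 5 kb were 10.7% and 0.845% for H3K27me3, 16.5% and 0.881% for H3K79me2, and 13.1% and 6.61% for Pol II, so the order by distance was not particular to lone peaks. For Pol II, 208 of the 382 places were over 5 kb from any untreated Pol II peak. Lone peaks held between H3K79me2 peaks within 1 kb on both sides overlapped H3K79me2 after Adriamycin at 22 of 85, and those held so between H3K27me3 peaks overlapped H3K27me3 at 35 of 191. Between Pol II peaks, Pol II was found at 6 of 50. The shares of other H3K4me3 peaks held between peaks of a target were not worked out.

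**Figure D5:**
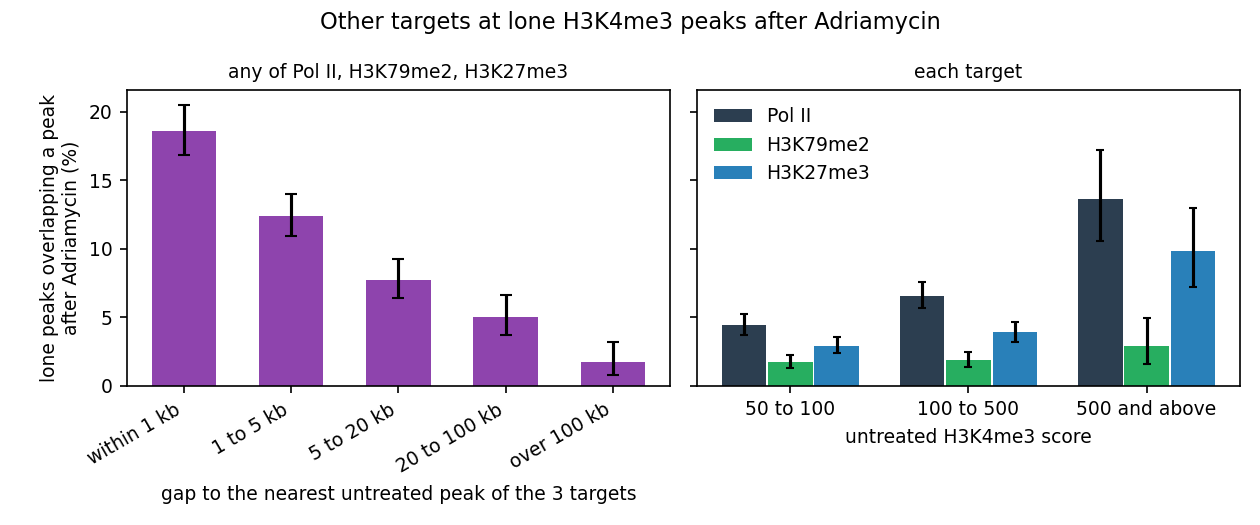
Percent of lone H3K4me3 peaks that overlap a peak of the other targets after Adriamycin, with exact 95% binomial intervals; left, any of Pol II, H3K79me2 and H3K27me3 by the gap to the nearest untreated peak of the 3, right, each target by untreated H3K4me3 score. The left bars go down from 18.6% to 1.70% with distance, and the right bars for Pol II and H3K27me3 are highest at scores of at least 500.

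Against other H3K4me3 peaks that also lacked the target before, lone peaks had more H3K27me3 after Adriamycin, and less Pol II at scores below 500 only. At untreated H3K4me3 scores of 100 to 200, Pol II was found at 5.97% of lone peaks (4.93 to 7.15%) and 8.64% of other peaks under 4000 bp without untreated Pol II (7.40 to 10.02%), and at scores of at least 500 at 13.6% and 12.9%. H3K27me3 was found at 3.91% (3.07 to 4.90%) and 1.496% (1.09 to 2.00%) at scores of 100 to 200, and at 9.84% and 1.87% (1.62 to 2.16%) at 500 and above. The others without Pol II carry H3K27me3 or H3K79me2 by the way they were chosen. More of them had Pol II nearby (965 of 8487 within 1 kb, against 560 of 6343). Likewise the others without H3K27me3 carry Pol II or H3K79me2, and fewer of them had H3K27me3 nearby (1357 of 19764 within 1 kb, against 1028 of 6343). Within 1 kb of untreated H3K27me3 the shares with H3K27me3 after Adriamycin were 12.3% and 9.58%, and over 5 kb away 1.505% and 0.699%. The part of distance in the differences was not tested further.

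Pol II was strong at 6 lone peaks after Adriamycin, with a score of at least 500, and 5 of these lay on chromosome 7. On chromosome 15 at 73577872-73581082 the H3K4me3 scores were 591.96 and 3100, and a Pol II peak of 11723 bp (score 3100) was found after Adriamycin. Untreated Pol II peaks covered 42.2% of that Pol II peak and ended 1.14 kb from the lone peak. A weak H3K79me2 peak (85.71) was found there too. On chromosome 7 at 4702120-4705469 the H3K4me3 scores were 2187.81 and 2780.91, and a Pol II peak of 9383 bp (score 3100) reached across after Adriamycin. An untreated Pol II peak covered 10.2% of it and lay 5.25 kb from the lone peak. On chromosome 7 at 86274778-86276136 (H3K4me3 335.85 and 657.08) the Pol II peak had a score of 1740.24, untreated Pol II had ended 48 bp away, and a weak H3K27me3 peak (62.03) was found as well. At 4894965-4895667 of the same chromosome (H3K4me3 395.98 and 64.75) it had a score of 1346, and untreated Pol II lay 781 bp away. In these 4 places the Adriamycin Pol II peak overlapped untreated Pol II peaks elsewhere along its length, so none was a Pol II region without any untreated counterpart.

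The highest H3K79me2 score was shared by 3 lone peaks under 1 H3K79me2 peak on chromosome 11, at 8453067-8453608, 8463961-8465897 and 8466785-8468024. That Adriamycin peak ran from 8447402 to 8466850 with a score of 3100, and no untreated H3K79me2 peak overlapped it. From peak lists alone, a peak that the caller missed in untreated cells and an absence of the mark there cannot be told apart. The lone H3K4me3 peaks there were weak in untreated cells (51.12, 58.21 and 126.44) and had no Adriamycin partner. Untreated Pol II lay 273 bp from the first of them, and the nearest untreated H3K79me2 peaks were 7.19, 10.1 and 7.93 kb away. On chromosome 1 at 173942607-173943727 (H3K4me3 470.63 and 274.41) an H3K79me2 peak of 3064.93 reached the lone peak after Adriamycin, and untreated H3K79me2 had ended 42 bp short of it.

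For H3K27me3 the highest scores were also at the edges of untreated regions. The Adriamycin H3K27me3 peaks on chromosome 11 (score 1963.2), 17 (1217.38), 8 (961.47) and 10 (919.92) each had untreated H3K27me3 under 78.96 to 95.5% of their length. They reached lone peaks at 115130736-115131983, 50037768-50038370, 108211573-108212357 and 42333709-42334288, from which untreated H3K27me3 had ended 263, 68, 4 and 80 bp away. The H3K4me3 scores at these 4 were low in untreated cells (181.81, 83.74, 62.39 and 100.27). In the Adriamycin list they were 184.83, 163.25 and 123.59, and the peak on chromosome 8 had no partner.

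hnRNP L, an RNA-binding protein known as a regulator of splicing, had few peaks at H3K4me3 of any kind, lone or other. The untreated list overlapped 10 of them (0.158%, interval 0.0756 to 0.290%), against a background of 0.109% of all untreated H3K4me3 peaks. With the Adriamycin list there were 11 (0.173%, interval 0.0866 to 0.310%), against 0.104%. Both backgrounds lie within the intervals. The strongest lone peaks among them were on chromosome 17 at 6270205-6271515 (H3K4me3 1209.86 and 1275.17), with hnRNP L of 98.41 in untreated cells and H3K79me2 of 52.11 after Adriamycin, and on chromosome X at 166434596-166436242 (1252.29 and 1748.78), with hnRNP L of 3100 after Adriamycin. On X untreated hnRNP L had ended 159 bp from the lone peak. On chromosome 6 at 47690184-47690584 (136.63 and 171.52) hnRNP L was found in both conditions, with scores of 1304.69 and 1356.13, and H3K27me3 of 66.21 after Adriamycin. On chromosome 4 a lone peak at 145265209-145265771 had hnRNP L of 60.87 and 419.9, and a lone peak at 145459983-145460415 had 104.87 in untreated cells only.

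The same rule applied to the Adriamycin lists gave 11061 H3K4me3 peaks (26.5% of that list), against 6343 (16.5%) in untreated cells. Their median width was 626 bp, against 710 bp. A score of at least 500 was held by 1060 of the 11061 and by 447 of the 6343. These counts come from sets of unlike size and from the scores of different lists, so they are not compared. Of the 11061, 4213 (38.1%) overlapped a lone peak of untreated cells, and 4135 of the 6343 untreated lone peaks (65.2%) overlapped one of them. Seen from that side, Pol II had been present in untreated cells at 24.2% of the Adriamycin lone peaks (23.4 to 25.02%). H3K27me3 had been present at 11.3% and H3K79me2 at 4.11%. Of all Adriamycin H3K4me3 peaks these shares were 58.1%, 27.5% and 36%. Adriamycin lone peaks lack these targets in the Adriamycin lists by the choice, so their lower shares are no result by themselves. The shares among Adriamycin H3K4me3 peaks without the target in the Adriamycin lists were not worked out. The matching shares from the untreated side were 6.02% for Pol II, 3.85% for H3K27me3 and 1.86% for H3K79me2. The Pol II and H3K27me3 lists are shorter after Adriamycin (59426 against 81069 peaks, and 88365 against 97639), and the H3K79me2 list is longer (71959 against 63053). When the longer list of each target was trimmed by score to the length of the shorter, the rule gave 9459 lone peaks in the Adriamycin lists and 7285 in the untreated lists, a smaller gap than between 11061 and 6343. The part of list length in what remains was not tested.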

How the data were processed

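The 10 deposited lists are peaks in BED form, 1 per library. Per the submitters' processing notes, the programs named were CASAVA 1.8.2 and MACS 1.4.1 and the build was mm9. The score of each peak is the authors' value, per the last column of each file. For read depth, input and duplicates, no statement is in the labels used. Coordinates are 1-based on mm9. No mm9 genome or annotation was used here, so genes, motifs, base composition and sequences under the peaks, though planned, were not analysed.

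Overlap means at least 1 bp. A gap is the distance between the ends of 2 peaks. Intervals of shares are Clopper-Pearson 95% (exact) and hold counting error alone. No test of the treatment was possible with 1 library per target and condition. The weighted difference used 10 equal parts of the lone peaks' scores and a normal-approximation interval. On 6000 simulated peaks with 2000 planted overlaps, 2000 were recovered and 0 were false. Regions were named by a rule: the 10 highest-scoring lone peaks, the 5 highest without a partner, the 4 with the highest Adriamycin score of Pol II, H3K79me2 and H3K27me3 each, the 3 highest at hnRNP L in each condition, the 3 most isolated and the 3 widest, with ties in order of chromosome and start. The members and lists were chosen with earlier results of these data known. The chromosome 13 stretch, the runs and the settings on isolation were set after looking at the values. The tools were SciPy 1.17.1, pandas 2.3.3, numpy 2.4.6 and matplotlib 3.10.9, in Python 3.11.15.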

Additional observations from a re-analysis of the deposited data

How the results depend on the processing

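The number of lone peaks stayed within 1.5 times of 6343 under the other alternatives (4583 to 8939) but was 3245 with H3K4me3 scores of at least 100. The share with an Adriamycin H3K4me3 peak was 88.6% with that score minimum, 75.6% with peaks within 1 kb merged, 68.9% with equal numbers of top-scoring peaks, and 76.2% for lone peaks with no other H3K4me3 peak within 5 kb. The weighted difference was positive in each setting run, at 4.04 points with merged peaks, 4.54 with equal numbers, 4.56 with width classes added, and 1.31 among isolated peaks, where its interval includes 0. Pol II after Adriamycin was found at 7.55% with H3K4me3 scores of at least 100, 10.6% when excluding peaks had to score 100 or more, 5.28% with no excluding peak within 1 kb, 8.13% with equal numbers, and 4.60% with no untreated Pol II within 5 kb. For H3K27me3 these were 4.71%, 6.86% and 2.38% for the first 3, and 1.505% with no untreated H3K27me3 within 5 kb. It was 4.57% when overlaps had to span 50% of the shorter peak. No paired analysis was possible because each group has 1 library. Settings on isolation, on the 5 kb distance and on the chromosome 13 stretch, and the number of lone peaks at equal list lengths, were added after the values were seen. Depth is unknown, so an absent peak is a peak not called.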

Other observations

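Lone peaks grouped by the target nearest to them differed in how often H3K4me3 was found again. Where H3K27me3 was the nearest target within 5 kb (1791 lone peaks), 78.95% had an Adriamycin H3K4me3 peak (77.0 to 80.8%). Where Pol II was nearest (1148), 68.5% did (65.7 to 71.1%), and where H3K79me2 was nearest (595), 68.9% did (65.0 to 72.6%). The median untreated scores of these groups were 106, 101 and 104. Lone peaks between H3K27me3 peaks within 3 kb on both sides were found again at 356 of 444 (80.2%), those between Pol II peaks at 119 of 207 (57.5%), and those between H3K79me2 peaks at 128 of 201 (63.7%). With 5 kb on both sides these shares were 76.9%, 66.4% and 64.6%, and with 1 kb 81.7%, 60% and 61.2%. The size of the differences and the order of Pol II and H3K79me2 thus depended on the distance. The shares of other H3K4me3 peaks between such peaks were not worked out. By distance to the nearest of the 3 targets, the shares found again were 74.1% within 1 kb, 73.6% at 1 to 5 kb and 71.0% at 5 to 20 kb. They were 77.7% at 20 to 100 kb and 82.2% of the 528 lone peaks over 100 kb away (78.7 to 85.4%). The median score of these 528 was 94.1 and their median width 547 bp.

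Width alone ordered the classes differently. Lone peaks under 500 bp were found again at 69.8% (67.2 to 72.4%) and other peaks of that width at 52.6% (48.7 to 56.4%), with median scores of 69.5 and 62.3. At 1000 bp or more the shares were 81.1% and 93.8%, where the median scores were 241 and 1603. Pol II was found after Adriamycin at 31 of 303 lone peaks on chromosome 7 (10.2%) and at 4 of 195 on chromosome 18 (2.05%). These were the highest and the lowest share of the numbered chromosomes and X, picked after the values were seen. Chromosomes 17 (9.19%), 4 (8.49%) and 11 (8.45%) were close to chromosome 7. The shares of other H3K4me3 peaks were not worked out by chromosome. In all, 19 untreated H3K4me3 peaks lacked Pol II and overlapped an Adriamycin Pol II peak with a score of at least 500, and 7 were on chromosome 7. These 19 include the 6 lone ones, of which 5 were on chromosome 7. Of the 7859 Adriamycin Pol II peaks with such a score, 649 were on chromosome 7. Of the 45 among them that overlapped no untreated Pol II peak, 2 were on chromosome 7.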
